A study of Mus musculus with 7 samples.

Results

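Type I interferon stimulated genes are the genes that cells switch on when interferon alpha or beta binds its receptor. The 40 genes described here are the listed members of this group, and each was found in the count table by its gene symbol, 40 of 26143 genes that carry a symbol. RNA had been sequenced from sorted alveolar macrophages, the phagocytes that live on the surface of the air sacs. The wild-type group (WT) held 4 libraries and the knockout group (KO) 3 libraries, all of them from C57BL/6 mice that were 4 months old. The only genotype difference named by the labels is Cish KO against WT. Cish encodes an inhibitor of cytokine receptor signalling. The labels give no sex, treatment, deletion design, batch or litter. Nor do they tie a library to a mouse of its own, so the p-values reflect the spread among libraries, which may be technical.

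Interferon receptors activate the kinases JAK1 and TYK2, which phosphorylate STAT proteins. STAT2 and IRF9 are parts of a complex that binds the interferon-stimulated response element in promoters. The induced genes include viral RNA sensors, enzymes that block viral replication, and factors that amplify or end the signal. Resting macrophages keep a low tonic level of many of them.

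The response element is the sequence feature that the members are known to share, so the promoters of the genes described below were searched for it. The motif was GAAANNGAAA, its core of 2 GAAA blocks, on both strands. RefSeq promoters (GRCm38.p6, 250 bases before to 50 bases after a start site) were at hand for 29 of the 40 members, as 35 promoters. The core lay in 17 of these 35 promoters (48.6%), which belong to 16 genes. Of all 32851 promoters of the same length, 1131 held it (3.44%). The longer form GAAANNGAAACT was in 9 member promoters (25.7%) and in 0.271% of all promoters. The palindrome TTCNNNGAA, known as the GAS element, was in 8 member promoters (22.9%), against 8.30% of all. In Ifitm3 it overlaps the later core. A match describes these letters only. Of the members described library by library, the 6 with the smallest edgeR p whose promoter holds the core are shown, each read 5′ to 3′ on the strand of the gene, with the core in capitals (a core on the other strand appears as its reverse complement). They lie at chr7:141010715-141010904 (minus strand, Ifitm3), chr5:120907496-120907685 (minus, Oas1a), chr8:61927927-61928116 (plus, Ddx60), chr12:26456423-26456612 (minus, Rsad2), chr19:34583369-34583558 (plus, Ifit3) and chr10:128270248-128270437 (plus, Stat2). Each is 190 bases long. The stretch of Stat2 starts 250 bases before its start site, and the others start 160 bases before theirs.
Ifitm3: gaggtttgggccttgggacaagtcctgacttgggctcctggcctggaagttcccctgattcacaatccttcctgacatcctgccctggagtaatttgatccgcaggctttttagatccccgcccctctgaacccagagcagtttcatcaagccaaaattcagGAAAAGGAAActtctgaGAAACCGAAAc
Oas1a: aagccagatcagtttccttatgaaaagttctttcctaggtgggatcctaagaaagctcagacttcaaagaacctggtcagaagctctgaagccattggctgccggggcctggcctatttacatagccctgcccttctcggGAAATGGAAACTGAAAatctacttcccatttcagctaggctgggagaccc
Ddx60: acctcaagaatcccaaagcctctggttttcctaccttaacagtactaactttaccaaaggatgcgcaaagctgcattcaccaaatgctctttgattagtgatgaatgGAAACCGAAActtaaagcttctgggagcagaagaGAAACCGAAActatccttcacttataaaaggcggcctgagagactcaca
Rsad2: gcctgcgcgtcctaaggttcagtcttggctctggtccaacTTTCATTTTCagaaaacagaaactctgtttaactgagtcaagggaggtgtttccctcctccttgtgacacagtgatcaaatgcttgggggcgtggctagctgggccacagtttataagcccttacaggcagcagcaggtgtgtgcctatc
Ifit3: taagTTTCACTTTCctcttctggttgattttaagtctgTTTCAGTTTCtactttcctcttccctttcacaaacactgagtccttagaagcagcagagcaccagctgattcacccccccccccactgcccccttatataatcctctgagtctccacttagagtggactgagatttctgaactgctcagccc
Stat2: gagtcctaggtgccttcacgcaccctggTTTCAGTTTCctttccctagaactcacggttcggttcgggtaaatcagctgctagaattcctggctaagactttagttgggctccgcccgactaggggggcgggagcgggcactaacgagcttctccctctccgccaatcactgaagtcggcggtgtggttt
In Ifitm3 both cores lie just after the start site, in Oas1a 2 overlapping cores lie 20 and 14 bases before it, and in Ddx60 the cores lie 53 and 19 bases before it. The cores of Rsad2 and Ifit3 lie further upstream, at 120 bases for Rsad2 and at 156 and 122 bases for Ifit3.

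Total counts lay between 26780291 and 34483612 per library. Cish itself had 46.3, 29.6, 38.1 and 67.9 CPM (counts scaled to library size) in WT 1 to WT 4 and 12.9, 14.3 and 10.9 CPM in KO 1 to KO 3. All KO libraries were lower (log2 fold change -1.84, SE 0.26, adjusted p 0.0519 in edgeR and 2.81e-11 in DESeq2), and reads of the gene were present in each of them. The 12 markers of alveolar macrophages were all detected, and 7 of them had log2 fold changes above 0. Siglecf was lower in every KO library, at 521 to 587 CPM in WT and 372 to 455 CPM in KO (adjusted p 0.00323 in DESeq2, 0.0950 in edgeR). So was Cidec, at 534 to 656 CPM in WT and 316 to 417 CPM in KO (adjusted p 0.000170 in DESeq2, 0.0898 in edgeR). Mrc1 was higher in every KO library, at 478 to 549 CPM in WT and 595 to 654 CPM in KO (adjusted p 0.0370 in DESeq2, 0.139 in edgeR). The summed level of the 12 markers, most of it Chil3, was 35816, 24124, 32216 and 60111 CPM in WT and 75668, 48839 and 82452 CPM in KO. This sum was lowest in WT 2 and highest in KO 3, as was the mean of the members given below. A link between the 2 was not tested. None of the 40 members lies on the chromosome of Cish. The members occupy 15 chromosomes and include gene clusters, among them Ifit1, Ifit2 and Ifit3 on chromosome 19 (34550694 to 34650009, mm10) and Oas1a, Oas2 and Oas3 on chromosome 5 (120730333 to 120907521). Others are Parp9, Parp14 and Dtx3l on chromosome 16 (35832874 to 35972605) and Ifitm2, Ifitm3 and Irf7 within chromosome 7 (140954837 to 141266481). Members of a cluster are close paralogs in several cases, and the handling of reads that fit more than 1 copy is not given in the sources used here. The library method does not mark strand, and Parp9 and Dtx3l, which run in opposite directions, share 458 exon bases.

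Of the 40 members, 38 passed the filter on low counts and were tested as part of 12759 genes. No member passed the edgeR quasi-likelihood test after Benjamini-Hochberg adjustment over all genes tested: 0 of 38, against 0.0862% of all genes, with a smallest adjusted p of 0.111. By DESeq2, 3 of 39 members were higher in KO, Ifitm3, Usp18 and Oas1a, and 0 were lower; over all genes DESeq2 called 2.68% higher and 3.02% lower. At an unadjusted edgeR p below 0.05, 12 of the 38 were higher and 0 lower, where all genes gave 9.15% higher and 8.85% lower. In 9 of the 38 every KO library lay above every WT library, against 7.23% of all genes, and in 0 did every KO library lie below, against 8.72%. The log2 fold change of KO against WT was above 0 for 32 of the 38. Its median over the 38 was 0.29, beside 0.003 over all genes tested, and it ranged from -0.57 (Oasl1) to 1.49 (Usp18).

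**Figure D1:**
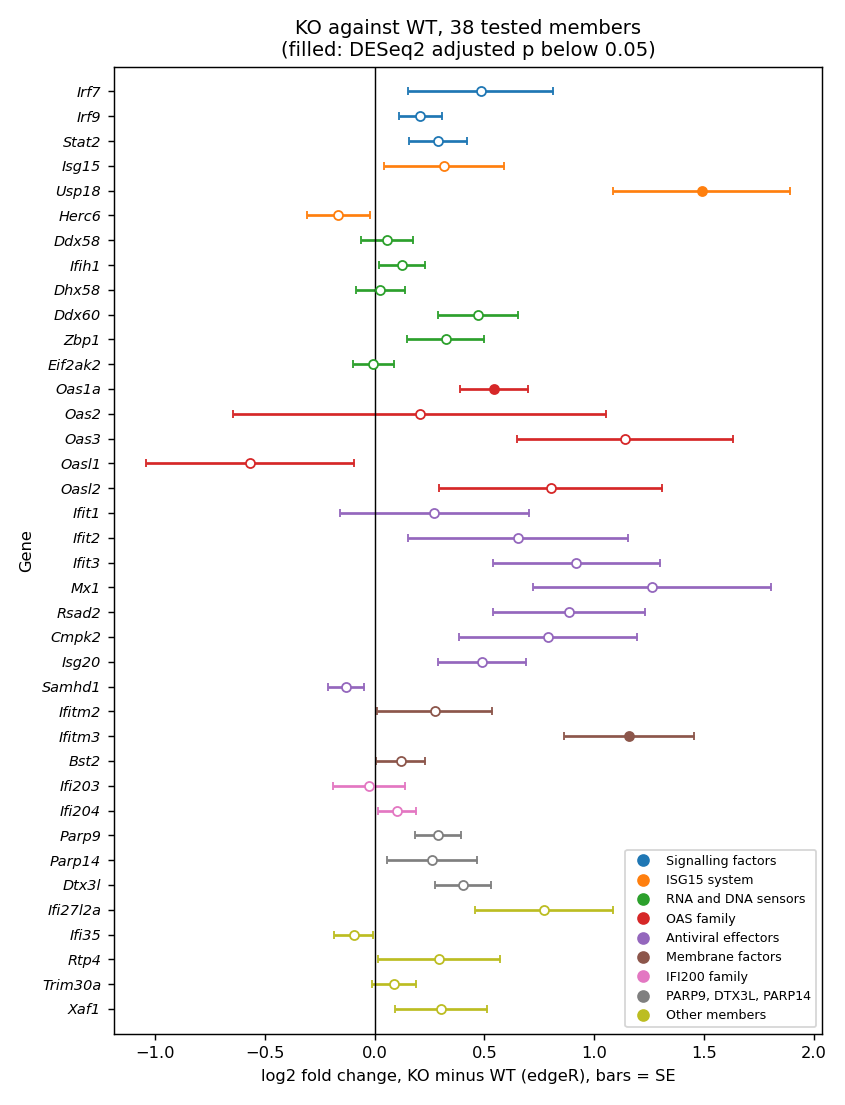
Log2 fold change of KO against WT (horizontal axis, edgeR, n = 4 WT and 3 KO libraries) for the 38 tested members, coloured by role, with the SE as bars; filled points are the 3 genes DESeq2 called. The points lie from -0.57 to 1.49, and 32 of 38 lie right of 0.

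The mean level of the members differed from library to library within a genotype as well as between genotypes. Single members did not all follow it. In WT 3, log2 CPM minus the WT mean was 0.85 for Ifit1 and -0.86 for Ifitm3. The mean log2 CPM of the 38 tested members was 3.20, 2.69, 3.14 and 3.14 in the WT libraries 1 to 4. In the KO libraries 1 to 3 it was 3.34, 3.19 and 3.72. WT 2 thus lay below the other WT libraries, KO 3 lay above every other library, and KO 2 was level with WT 1. The group means were 3.04 ± 0.23 (SD, n = 4) and 3.42 ± 0.27 (SD, n = 3). KO 3 held the highest CPM of the 7 libraries for 21 of the 38 members (55.3%), while it did so for 11.6% of all genes tested. WT 2 held the lowest for 19 members (50%), against 15.1% of all genes. Members above every WT library numbered 27 in KO 3, 16 in KO 1 and 12 in KO 2, that is 71.1%, 42.1% and 31.6%; for all genes the shares were 22.3%, 28.3% and 22.6%.

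**Figure D2:**
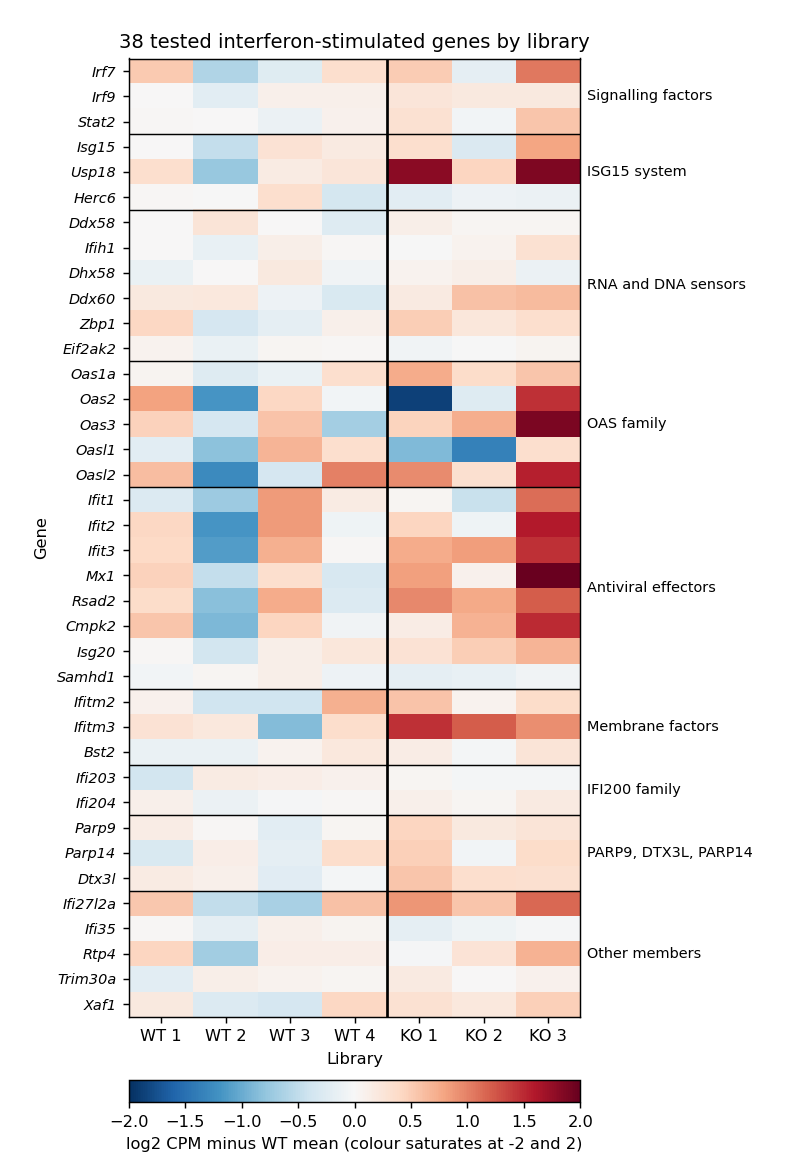
Log2 CPM minus the WT mean (colour, saturating at -2 and 2) of the 38 tested members (rows, grouped by role) in the 7 libraries (columns). KO 3 is the highest library for 21 of the 38 rows and WT 2 the lowest for 19.

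WT 2 had the lowest mean of the members and KO 3 the highest, so leaving out either shrinks the difference by construction. The values without them only give by how much. The median log2 fold change was 0.22 without WT 2, 0.18 without KO 3 and 0.13 without both, a pair chosen after the values were seen, with 25 of 38 members above 0. At an unadjusted edgeR p below 0.05, 7 of 38 members were higher and 0 lower without WT 2. Without KO 3, 5 were higher and 1 lower, and without both 4 were higher and 1 lower. The share of all genes at that p was taken only with all 7 libraries, where it was 9.15% higher and 8.85% lower. Without both, the log2 fold changes of Irf7 (-0.03), Isg15 (-0.11), Bst2 (-0.0015) and Ifih1 (-0.02) turned sign, while that of Ifitm3 was 1.33 and that of Usp18 1.06. Without KO 2 the median was 0.40. WT 4 and KO 3 follow the other 5 libraries as the last columns of the deposited table, with no reason given. Without that pair the median was 0.25, with 29 of 38 above 0, and edgeR called 0 members while it called 4.57% of all genes.

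**Figure D3:**
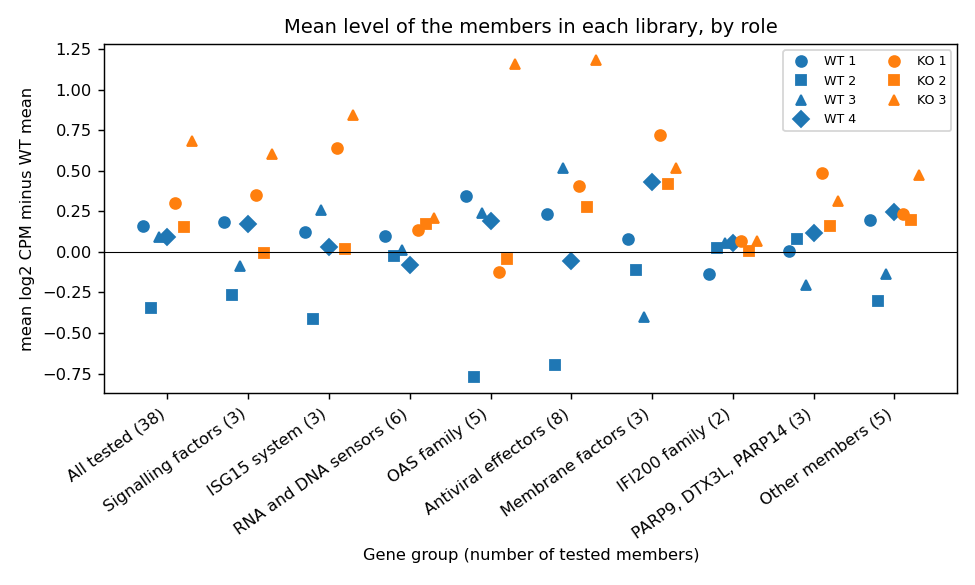
Mean log2 CPM of the tested members in each library minus the WT mean (vertical axis), for all 38 and by role, with the number of genes in brackets; WT in blue, KO in orange. KO 3 is the highest point over all 38 (3.72 against 2.69 to 3.34 in the others before the WT mean is taken off), and the spread between libraries is widest in the OAS family and the antiviral effectors.

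The 3 signalling members build and extend the response: Stat2 and Irf9 encode subunits of the complex that binds the response element, and Irf7 is the factor that drives further interferon alpha production. Irf9 (chromosome 14, 55603571 to 55610030) had 22.4, 19.3, 23.7 and 23.8 CPM in WT 1 to WT 4 and 26.3, 25.4 and 25.5 CPM in KO 1 to KO 3. Its groups did not overlap, although the difference was small (log2 fold change 0.21, SE 0.10, adjusted p = 0.305 by edgeR). Stat2 (chromosome 10, 128270559 to 128292849) had 26.8, 26.4, 24.2 and 27.8 CPM in WT and 32.4, 25.4 and 38.6 CPM in KO. KO 2 lay inside the WT range, and the log2 fold change was 0.29 (SE 0.13, adjusted p = 0.297 by edgeR). Irf7 had 9.88, 4.5, 5.82 and 8.67 CPM in WT and 9.81, 6.10 and 14.4 CPM in KO. Only KO 3 exceeded the WT range. The log2 fold change of Irf7 was 0.48 (SE 0.33, adjusted p = 0.472 by edgeR).

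The ISG15 system attaches the ubiquitin-like protein ISG15 to other proteins. Usp18 removes ISG15 and also blocks the interferon receptor, which makes it a brake on the response, and Herc6 is an ISG15 ligase. Usp18 (chromosome 6, 121245906 to 121270917) was low in every library, with 1.34, 0.594, 1.18 and 1.25 CPM in WT and 3.80, 1.44 and 3.97 CPM in KO. KO 1 and KO 3 were near 4 CPM and KO 2 only just above WT 1. The log2 fold change was 1.49 (SE 0.40), and the adjusted p was 0.125 in edgeR and 0.0121 in DESeq2. In raw reads this is 19 to 48 per WT library and 37 to 115 per KO library. Isg15 (chromosome 4, 156199424 to 156200818) had 5.12, 3.66, 6.24 and 5.82 CPM in WT and 6.44, 4.16 and 8.86 CPM in KO, with KO 2 below 3 of the 4 WT libraries (log2 fold change 0.32, SE 0.27, adjusted p = 0.577 by edgeR). Herc6 had 19.8 to 31.7 CPM in WT and 21.7 to 23.5 CPM in KO, with a log2 fold change of -0.16 (adjusted p = 0.586 by edgeR).

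The 6 sensors detect foreign or misplaced nucleic acid. Ddx58 (RIG-I) and Ifih1 (MDA5) bind viral double-stranded RNA, Dhx58 (LGP2) modulates them, Zbp1 binds Z-form nucleic acid and can start cell death, and Eif2ak2 (PKR) halts translation. Neither tool called any of the 6, whose median log2 fold change was 0.09. Log2 fold changes were 0.06 for Ddx58, 0.12 for Ifih1, 0.03 for Dhx58 and -0.01 for Eif2ak2, with SEs of 0.09 to 0.12. Ifih1 had 29.4 to 35.5 CPM in WT and 32.5, 34.2 and 40.3 CPM in KO. Ddx60, a helicase described as a RIG-I cofactor, stood apart from them with 7.25, 7.32, 5.92 and 5.10 CPM in WT and 7.20, 9.56 and 9.89 CPM in KO. KO 1 lay inside the WT range, and the log2 fold change was 0.47 (SE 0.18, adjusted p = 0.222 by edgeR). Zbp1 had a log2 fold change of 0.32 (SE 0.18), with 13.0 to 21.9 CPM in WT and 19.1 to 23.0 CPM in KO.

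The OAS enzymes make the second messenger that activates RNase L, an enzyme that degrades RNA, while the OAS-like Oasl1 represses translation of Irf7. Oas1a (chromosome 5, 120896256 to 120907521) had 17.9, 14.5, 15.8 and 22.0 CPM in WT and 28.9, 22.3 and 25.4 CPM in KO. All KO libraries were higher, with KO 2 only slightly above WT 4. The log2 fold change was 0.54 (SE 0.15), and the adjusted p was 0.133 in edgeR, 0.0329 in DESeq2 and 0.0467 in edgeR without WT 4. Reads of Oas1a and its neighbour Oas1g, which is no member, may be shared; Oas1g had 7.13, 4.60, 4.61 and 9.64 CPM in WT and 13.7, 8.35 and 13.1 CPM in KO (log2 fold change 0.85, DESeq2 adjusted p 0.0492, adjusted p = 0.178 by edgeR). Oasl1 went the other way (log2 fold change -0.57, SE 0.47), with 1.66 to 4.84 CPM in WT and 1.58, 1.13 and 3.79 CPM in KO. The median log2 fold change of the 5 OAS members was 0.54. Of these 5 edgeR called 0 and DESeq2 1, while DESeq2 called 2.68% of all genes higher and 3.02% lower. As a mean log2 CPM the 5 OAS members stood at 1.22, 0.10, 1.12 and 1.07 in the WT libraries and 0.75, 0.84 and 2.04 in the KO libraries, so KO 1 and KO 2 lay below 3 of the 4 WT libraries. Oasl2 had a log2 fold change of 0.80 (SE 0.51) and 0.750 to 3.91 CPM in WT. Oas2 and Oas3 had under 1 CPM in every WT library, and their largest values, 0.919 and 1.99 CPM, were both in KO 3.

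The effectors act on viral RNA, nucleotides or trafficking. Of 9, 8 were tested, with a median log2 fold change of 0.72; edgeR and DESeq2 called 0, and 4 were higher at an unadjusted p below 0.05. Rsad2 (viperin) makes a chain-terminating nucleotide, and its neighbour Cmpk2 (log2 fold change 0.79, SE 0.40) supplies the substrate. Rsad2 (chromosome 12, 26442746 to 26456452) had 3.25, 1.38, 4.26 and 2.07 CPM in WT and 4.95, 4.31 and 5.92 CPM in KO. The groups were separated only by the small gap between WT 3 and KO 2 (log2 fold change 0.89, SE 0.35, adjusted p = 0.228 by edgeR). Ifit3 (chromosome 19, 34583531 to 34588731), of the IFIT family that binds foreign RNA, had 4.14, 1.41, 5.19 and 3.19 CPM in WT and 5.32, 5.67 and 8.79 CPM in KO. Here too the groups touched without overlap, between WT 3 and KO 1 (log2 fold change 0.92, SE 0.38, adjusted p = 0.249 by edgeR). Its family members overlapped between genotypes: Ifit2 had a log2 fold change of 0.65 (SE 0.50) and Ifit1 of 0.27 (SE 0.43), with WT 3 at 12.9 CPM for Ifit1, above KO 1 at 7.36 and KO 2 at 5.21. Isg20, an RNA exonuclease, had 3.61, 2.72, 3.85 and 4.16 CPM in WT and 4.36, 5.01 and 5.74 CPM in KO (log2 fold change 0.49, SE 0.20, adjusted p = 0.245 by edgeR). Without KO 3 and WT 2 the log2 fold changes of Rsad2, Ifit3 and Isg20 were 0.53, 0.39 and 0.27. Samhd1, which depletes the nucleotide pool, had 289, 311, 327 and 280 CPM in WT and 266, 273 and 288 CPM in KO (log2 fold change -0.13, SE 0.08, adjusted p = 0.442 by edgeR). Mx1, a GTPase that C57BL/6 mice carry in a defective form, had 0.188 to 0.420 CPM in WT and 0.561, 0.311 and 1.32 CPM in KO. Its relative Mx2, with 2 to 17 reads per library, did not pass the filter.

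**Figure D4:**
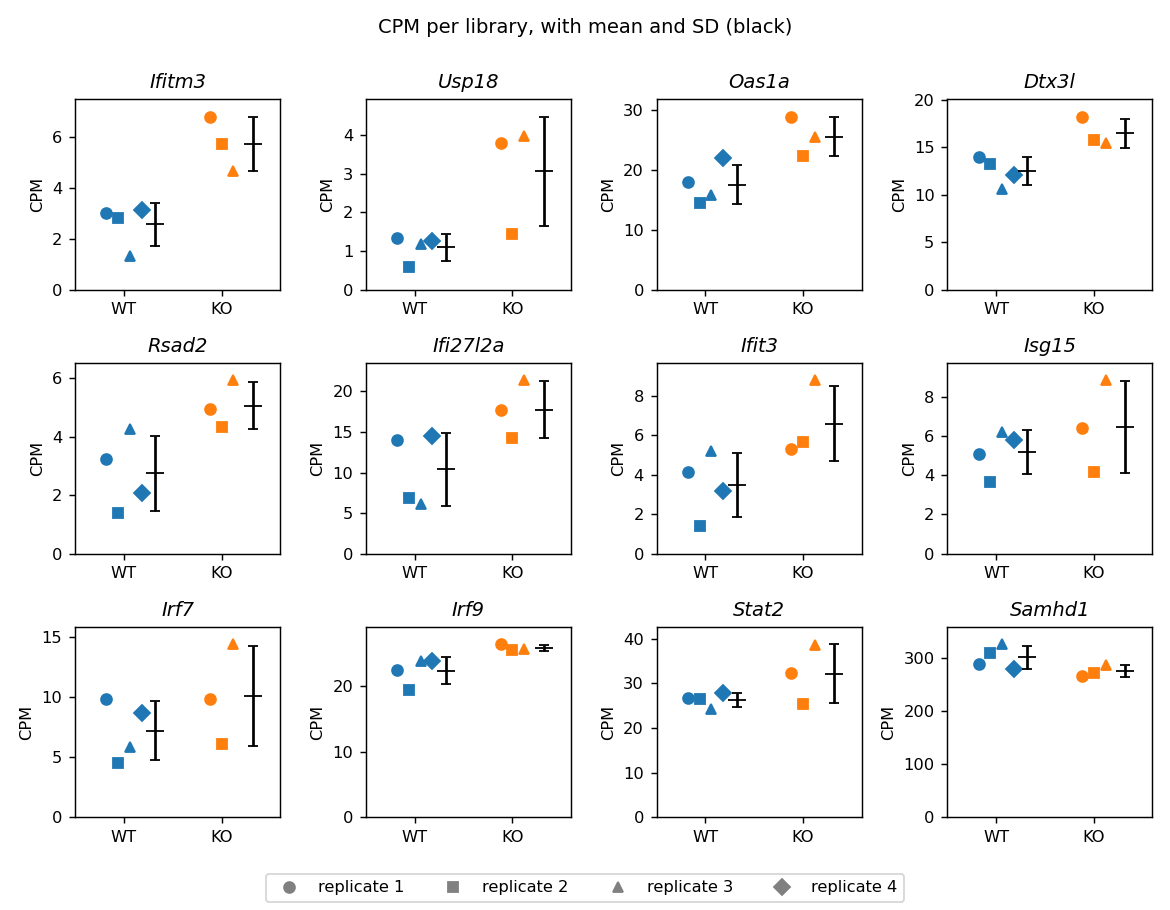
CPM (vertical axes, each from 0) of 12 members in each library, marked by replicate number, with the group mean and SD in black (n = 4 WT, 3 KO). Ifitm3, Usp18, Oas1a, Dtx3l, Rsad2, Ifit3 and Irf9 show no overlap between groups, and Isg15, Irf7, Ifi27l2a, Stat2 and Samhd1 overlap.

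Among the membrane factors, Ifitm2 and Ifitm3 hinder fusion of viruses with endosomes, and Bst2 (tetherin) holds budding viruses at the cell surface. Ifitm3 (chromosome 7, 141009586 to 141010770) had 2.99, 2.81, 1.30 and 3.13 CPM in WT and 6.80, 5.71 and 4.67 CPM in KO. All KO libraries were higher, KO 3 the least so, unlike most members. The log2 fold change was 1.16 (SE 0.30), and the adjusted p was 0.111 in edgeR and 0.00588 in DESeq2. Beside this, the summed level of 5 endothelial and stromal markers was 1.27 to 5.26 CPM in WT, lowest in WT 3, and 9.71, 10.6 and 3.57 CPM in KO 1 to KO 3, with KO 3 inside the WT range. The 6 epithelial markers summed to 165 to 349 CPM in WT and 123 to 157 CPM in KO. Most of that WT sum was Epcam, at 135 to 302 CPM in WT and 9.24, 29.5 and 92.6 CPM in KO, lower in every KO library. The other 5 overlapped between groups with log2 fold changes above 0, among them Sftpc at 12.9 to 47.2 CPM in WT and 69.5, 63.1 and 19.2 CPM in KO. Of both lists edgeR called 0 markers after adjustment, with Epcam, Ager, Pecam1 and Cdh5 at an unadjusted p below 0.05, and DESeq2 called the endothelial Pecam1 (adjusted p 0.0392) and Cdh5 (adjusted p 0.00662) higher in KO. The part of such cells in the Ifitm3 difference was not tested. Ifitm2 had 26.9 to 58.3 CPM in WT and 37.5 to 52.6 CPM in KO, with WT 4 highest of all, and 40.9% of its exon bases are shared with an annotated gene on the same strand. Bst2 had 43.9, 43.9, 50.6 and 56.2 CPM in WT and 53.4, 47.2 and 57.7 CPM in KO (log2 fold change 0.12, SE 0.11, adjusted p = 0.614 by edgeR).

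Parp9 and Dtx3l form a heterodimer that modifies histones, and the ADP-ribosyltransferase Parp14 belongs to the same locus. Dtx3l had 14.0, 13.3, 10.6 and 12 CPM in WT and 18.3, 15.7 and 15.4 CPM in KO, and Parp9 had 29.9, 27.5, 23.4 and 27.8 CPM in WT and 36.3, 31.0 and 32.2 CPM in KO. Both had every KO library above every WT library, and both were highest in KO 1, not KO 3. The log2 fold changes were 0.40 (SE 0.13) for Dtx3l and 0.29 (SE 0.11) for Parp9, with edgeR adjusted p of 0.164 and 0.197. Without WT 2 and KO 3 they were 0.47 and 0.31. Parp14 had a log2 fold change of 0.26 (SE 0.20) with overlapping groups.

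The IFI200 proteins are nuclear and cytosolic DNA binders. Ifi204 had 24.1 to 28.0 CPM in WT and 26.8 to 29.4 CPM in KO (log2 fold change 0.10, SE 0.09), and Ifi203 had a log2 fold change of -0.03 (SE 0.16). Among the remaining members, Ifi27l2a, a small mitochondrial membrane protein, had 14.1, 6.81, 6.14 and 14.5 CPM in WT and 17.7, 14.2 and 21.4 CPM in KO. The WT libraries fell into a low pair, WT 2 and WT 3, and a high pair, WT 1 and WT 4, which reached KO 2; the log2 fold change was 0.77 (SE 0.31, adjusted p = 0.242 by edgeR). Ifi35 had 61.5 to 74.7 CPM in WT and 61.8 to 68.7 CPM in KO (log2 fold change -0.10, SE 0.09). Rtp4, Xaf1 and the ubiquitin ligase Trim30a had log2 fold changes of 0.29, 0.30 and 0.09, each with overlapping groups. Ifi44, with 0 to 6 reads per library, did not pass the filter.

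Levels were compared between genes as CPM per kilobase of annotated exon (RPKM, GENCODE M21). In WT the highest were Ifitm2 with 57.2 ± 22.6, Bst2 with 53.9 ± 6.55, Ifi35 with 40.5 ± 3.39 and Samhd1 with 33.0 ± 2.29 (mean RPKM ± SD, n = 4). The SD of Ifitm2 reaches from its mean to below those of Bst2 and Ifi35, so their order is not resolved. The classical markers of an interferon response were low on this scale: Isg15 was at 6.89 ± 1.5, Ifit1 at 2.92 ± 1.41, Irf7 at 1.91 ± 0.657 and Rsad2 at 0.631 ± 0.295 RPKM, and Mx1, Oas2, Oas3, Mx2 and Ifi44 were under 0.1. In KO Isg15 was at 8.58, Ifit1 at 3.52, Irf7 at 2.67 and Rsad2 at 1.17 RPKM. The spread between WT libraries was wide for many members. The coefficient of variation of CPM exceeded 30% in 15 of the 38 tested members (39.5%), among them Oasl2 (62.5%), Ifit2 (52.1%), Ifit1 (48.2%), Rsad2 (46.7%) and Ifit3 (46.1%), against 16.2% of all genes tested. It was 5.76% for Stat2, 6.15% for Eif2ak2 and 6.96% for Samhd1.

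The genes upstream of the members were examined from a separate list. Of 16 interferon genes, none passed the filter, and 6 had 0 reads in every library, which allows up to 3 reads or 0.0839 to 0.117 CPM per library for counting error alone. All 16 together had 4 to 18 reads per library, and Ifnb1, the interferon beta gene, had 2 to 8. Ifnar1 and Ifnar2 encode the receptor chains. Ifnar1 had 32.3, 30.4, 29.5 and 34.3 CPM in WT and 39.3, 34.9 and 33.9 CPM in KO, with KO 3 inside the WT range (log2 fold change 0.19, SE 0.09, adjusted p = 0.313 by edgeR). The log2 fold change of Ifnar2 was 0.16 (SE 0.11), and its groups overlapped. Among 9 tested receptor and kinase genes 0 were called by either tool. Of 18 genes on the path that induces interferon, Ticam2, an adaptor of TLR4, was higher by DESeq2 with 45.5 to 51.5 CPM in WT and 59.7 to 67.4 CPM in KO (adjusted p 0.0188, edgeR 0.0975), and the adaptor Myd88 was lower with 232 to 271 and 193 to 217 CPM (0.0426, edgeR 0.141). Irf1 had a log2 fold change of 0.25 (SE 0.20).

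Among 15 feedback genes, Socs3, an inhibitor of cytokine receptors and relative of Cish, had 16.8, 10.1, 10.3 and 18.6 CPM in WT and 41.9, 52.1 and 33.1 CPM in KO (log2 fold change 1.6, SE 0.24, adjusted p 0.0561 in edgeR and 1.56e-08 in DESeq2). It was lowest of the KO libraries in KO 3, where the mean of the members was highest. Socs1, the inhibitor most tied to interferon receptors, had 3.22, 2.85, 4.42 and 3.63 CPM in WT and 6.34, 4.55 and 4.82 CPM in KO, with groups that touched without overlap (log2 fold change 0.57, SE 0.21, adjusted p = 0.206 by edgeR). Of 46 tested interferon-stimulated genes that are no members, DESeq2 called 3 higher and 1 lower, edgeR 0, and the median log2 fold change was 0.09. Over all genes DESeq2 called 2.68% higher and 3.02% lower. Slfn8 had 2.19 to 3.41 CPM in WT and 4.89 to 5.84 CPM in KO (log2 fold change 0.99, DESeq2 adjusted p 0.00102, edgeR 0.0930), and Ifi209 had 0.668 to 1.63 and 1.79 to 3.13 CPM. Nmi, which binds IFI35, was the lower gene, with 34.9 to 36.6 CPM in WT and 28.3 to 29.1 CPM in KO (DESeq2 adjusted p 0.0186, edgeR 0.0980). Over the 91 tested genes of these lists that are no members, edgeR called 0, and DESeq2 called 5 higher and 2 lower. At an unadjusted edgeR p below 0.05, 17 of the 91 were higher and 9 lower, where all genes gave 9.15% higher and 8.85% lower.

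Cells other than alveolar macrophages can carry interferon-stimulated transcripts, and in bulk RNA fewer cells of a type and less RNA per cell cannot be told apart. Plasmacytoid dendritic cells are the classical source of interferon. Of their 7 markers 4 were under 1 CPM in every library, the defining Siglech was at 0 to 0.165 CPM, and the summed level was 16.8 to 21.1 CPM in WT and 15.6 to 24.1 CPM in KO, lowest in KO 3. The monocyte gene Ly6c2 was under 1 CPM in every library; the monocyte and interstitial macrophage list, most of it Nr4a1, summed to 468 to 1084 CPM in WT and 382 to 528 CPM in KO. Markers of T and NK cells summed to 2.39 to 5.97 CPM in WT and to 13.7, 11.1 and 2.61 CPM in KO 1 to KO 3, so KO 3 was inside the WT range. Among them DESeq2 called Klrb1c higher in KO (log2 fold change 3.89, adjusted p 0.000461 in DESeq2 and 0.103 in edgeR). Klrb1c had 2 to 11 reads per WT library and 89, 101 and 4 reads in KO 1 to KO 3. The neutrophil gene Ly6g had no reads, and that list summed to 35.8 to 60.0 CPM in WT and 29.9 to 49.8 CPM in KO. Of that list DESeq2 called Csf3r lower in KO, at 21.4 to 44.4 CPM in WT and 14.6 to 21.6 CPM in KO (adjusted p 0.00421 in DESeq2, 0.120 in edgeR). Erythroid transcripts were at 205.8, 42.4, 8.43 and 188 CPM in WT and 308, 492 and 165 CPM in KO; they were low in WT 2 and WT 3, as Ifi27l2a was. The part of these cells in the differences was not tested.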

How the data were processed

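RNA of sorted alveolar macrophages was extracted from TRIzol LS with a Zymo Directzol kit and made into Nextera XT libraries, per the labels. The authors deposited raw counts of reads per gene symbol; the file name gives rsubread, and the submitters' processing notes name mm10 and DESeq2. For aligner settings, annotation and multi-mapping: not given in the sources used here. From 27179 rows, 1036 without a symbol were left out (0.376% to 0.424% of counts). Columns were tied to samples by genotype and replicate number.

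The main test was edgeR 4.0.16 under R 4.3.3 (filterByExpr, TMM factors, quasi-likelihood F test on genotype, 5 residual degrees of freedom, common biological coefficient of variation 0.187), which tested 12759 genes, and p-values were adjusted over all of them by Benjamini-Hochberg with a threshold of 0.05. CPM values use the TMM factors, and log2 CPM a prior count of 2. SE is that of the log2 fold change and SD the spread between libraries. Intervals from reads would cover counting error only, since the labels name no molecular identifiers. Alternatives used DESeq2 1.42.0 and limma 3.58.1, other factors and filters, a replicate block and libraries left out. The edgeR and DESeq2 fits were tested on simulated data. Positions and exon lengths are from GENCODE M21.

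The 40 members and the other lists were chosen with earlier results of these data known. Genes to single out were members called by edgeR or DESeq2, the 10 with the smallest p and the member with most CPM per role. Irf7, Irf9, Stat2, Isg15 and Usp18 were added. Of other lists, up to 4 called genes each were taken, with Ifnar1, Ifnar2, Irf1 and Socs1. Their values were given in every library, except for some shown as ranges. These are Herc6, Ifi204, Ifi35, Ticam2, Myd88, Slfn8, Ifi209 and Nmi, and Ifih1 in WT. For Ifnar2 and Irf1 only the log2 fold change was given. One gene of the rule is not reported here. Other values were added after they were seen, as was the removal of WT 2 with KO 3.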

Additional observations from a re-analysis of the deposited data

Results flagged for a closer look

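A WT library stood far from the other 3 in 4 of the 46 sets of WT values examined. Chance flags about 1 in 20 separate sets. These sets overlap, since the 5 OAS genes are also part of the member mean, so the 4 flags cannot be set against that rate. In WT 2 the mean log2 CPM of the tested members was 2.69, against 3.14 to 3.20 in the other WT libraries. The 5 OAS family members had a mean of 0.10 in WT 2, against 1.07 to 1.22. The 46 interferon-stimulated genes outside the member list had a mean of 3.80 in WT 2, against 3.90 to 3.91. For the pair of IFI200 genes it was WT 1 that stood apart, with a mean of 3.61 against 3.78 to 3.81.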

How the results depend on the processing

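Members called numbered 0 with edgeR, 3 with DESeq2, 2 with no filter (Usp18 and Ifitm3, of 40 tested), 4 with the replicate block (Usp18, Oas1a, Ifitm2 and Ifitm3) and 0 to 1 when single libraries were left out (Oas1a without WT 4). All genes called numbered 11 with edgeR, 753 with DESeq2, 397 with no filter, 21 with at least 5 CPM in at least 3 libraries, 46 with limma voom, 430 with the replicate block, 590 without WT 4 and KO 3, 48 without WT 2 and KO 3, 19 with a term for WT 4 and KO 3, and 7 to 284 without single libraries (284 without WT 4, 217 without KO 3). For the other pathway genes called, the share of all genes called in the same setting is in brackets. They numbered 0 of 91 with edgeR (0.0862%), 7 of 91 with DESeq2 (5.71%) and 2 of 107 with no filter (1.79%). The stricter filter gave 1 of 76 (0.221%), voom 1 of 91 (0.361%) and the replicate block 3 of 91 (3.37%). Without WT 4 and KO 3 it was 4 (4.57%), and without single libraries 0 to 3 (0.0552% to 2.25%). Members without overlap numbered 9 of 38 in the main fit, all of them higher in KO, against 7.23% of all genes higher and 8.72% lower. They numbered 5 with library sizes only and 9 to 14 without single libraries. Without WT 4 and KO 3 they numbered 14, and without WT 2 and KO 3 15. Fewer libraries overlap less often by construction. The share of all genes was not taken for these settings, so the counts show nothing particular to the members. The median log2 fold change of the members lay between 0.18 and 0.40 without single libraries. Of 582 values of 31 named genes under the alternatives, 550 kept direction and side of the threshold, 28 newly passed and 4 turned sign: without WT 2 and KO 3 Irf7 to -0.0341, Isg15 to -0.113, Bst2 to -0.0015 and Ifih1 to -0.0242. The cause was not tested. The longer promoter motif was in 9 promoters, the core in 17. The deviations of same-numbered libraries had correlations of -0.01, 0.14 and -0.02. So few libraries cannot exclude that the numbers pair them, and the labels give no pairing. In the replicate block WT 4 has its own level and takes no part. Members under 1 CPM, such as Oas2, Oas3 and Mx1, rest on few reads.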
